A study of Homo sapiens with 6 samples.

Results

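The mitochondrial ribosomal protein genes were described across RNA-seq libraries of A375 cells, a human malignant melanoma line, treated with PAL or left as control. They were taken as the protein-coding genes of the deposited FPKM table whose symbol starts with MRPL or MRPS followed by a number, which gave 78 of 58735 genes. By name, 49 of them belong to the large subunit (MRPL) and 29 to the small subunit (MRPS). PAL is Ringer's lactate, an infusion solution, activated by low-temperature plasma. There were 3 PAL libraries and 3 control libraries of poly-A enriched RNA from the same line, and the labels name no genetic change in either group. No source used here gives the dose, the exposure time or what the control cells received. The names of the PAL columns in the deposited table, unlike those of the control columns, carry a number that no label explains. None says that replicates were separate cultures, so the p-values reflect a spread among libraries that may be technical.

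The mitochondrial ribosome translates the few mRNAs encoded by mitochondrial DNA, all for parts of the oxidative phosphorylation complexes. Its rRNAs come from mitochondrial DNA, while all of its proteins are encoded in the nucleus, made on cytosolic ribosomes and imported. Many of these proteins have bacterial counterparts, and others were added during the evolution of mitochondria. A few names do not match the subunit that holds the protein: MRPS30 and MRPS18A sit in the large subunit, and MRPS36, also called KGD4, is now known as a subunit of the 2-oxoglutarate dehydrogenase complex.

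The libraries held 15064971 to 17711389 reads assigned to genes. Stress-inducible HSP70 genes were high in the libraries labelled control: HSPA6 had 20.7, 27.4 and 73.2 FPKM in PAL libraries, against 1999, 1960 and 1685 FPKM in control libraries. HSPA1A, another of them, averaged 65.3 ± 26.1 FPKM in PAL and 1386 ± 25.4 FPKM in control libraries (SD, n = 3 each). These genes, named here after their values were seen, are induced by heat and other protein stress, and whether the group labels were exchanged was not tested. Of 10 melanocyte and melanoma markers, 6 reached a mean of 1 FPKM (SOX10, AXL, NGFR, S100B, S100A1 and MITF), and the 10 summed to 220.5 to 228.5 FPKM in PAL and 193.3 to 201.7 FPKM in control libraries. TYR was at 0 in every library, and 0 of 3 endothelial, 1 of 4 fibroblast, 1 of 4 leukocyte and 2 of 4 keratinocyte markers reached that mean.

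Most mitochondrial ribosomal protein transcripts had slightly higher values in PAL cells, and 1 of them, MRPL18, was clearly less abundant. Of the 76 members that could be tested, 16 (21.1%) rose and 1 fell at an adjusted p below 0.05 (limma on log2(FPKM + 1), Benjamini-Hochberg adjustment over all 12258 genes tested). Over all tested genes, 11.4% rose and 14.5% fell by the same rule. These shares were not matched for level: the median was 25.3 FPKM over tested members and 6.18 FPKM over all tested genes. The log2(FPKM + 1) scale understates changes of low genes. The log2 fold change was positive for 70 of 76 members, with a median of 0.09, against a median of 0.00 over all tested genes. Without overlap between the 3 PAL and the 3 control libraries, 34 members were higher and 3 lower, against 21.4% of tested genes higher and 23.6% lower. In bulk RNA, fewer cells with a transcript and less RNA per cell cannot be told apart.

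The sizes were small, and the number of calls varied with the libraries and the scale. Without PAL replicate 1, 2 or 3, 10, 6 and 10 members rose, and without control replicate 1, 2 or 3, 6, 10 and 13 rose. The FPKM scale also matters, since the library size behind it was 1.04 to 1.05 of the assigned reads in PAL libraries and 0.980 to 0.984 in control libraries. Rescaled to TPM, 41 members rose, with quantile normalization 31 and with plain read totals 47, and all 17 members called on the deposited scale were among the calls in each. Rises made up 44.0% of the calls over all genes on the deposited scale, 69.7% in TPM, 59.2% with quantile normalization and 73.3% with plain totals. In each of these scalings MRPL18 was the 1 member that fell.

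**Figure D1:**
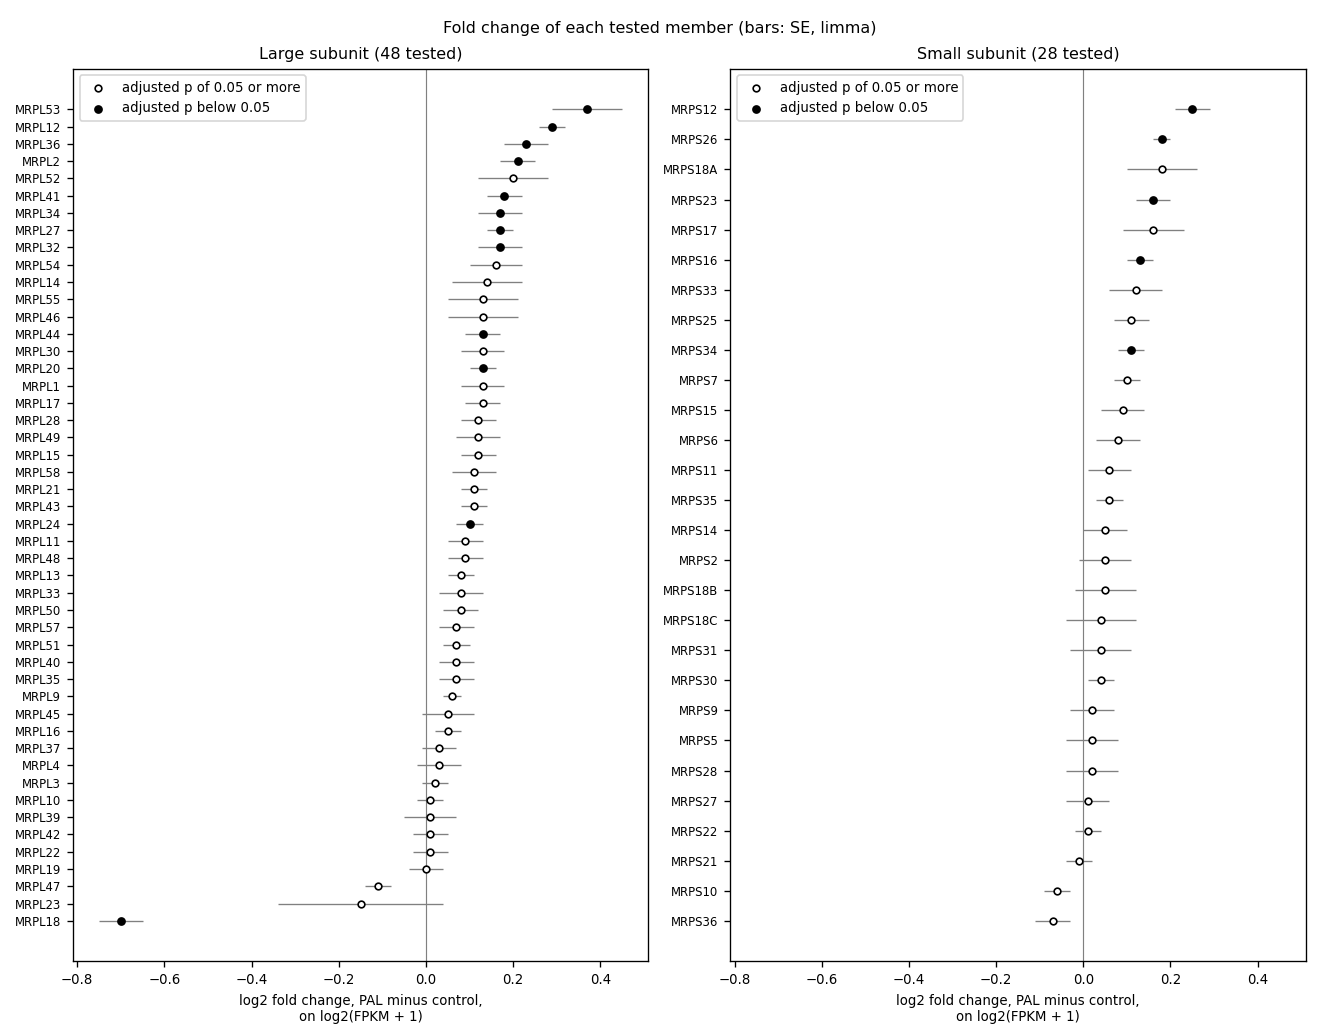
Log2 fold change of each tested member, PAL minus control on log2(FPKM + 1), with the large subunit at left (48 genes) and the small subunit at right (28 genes), bars giving the SE and filled points an adjusted p below 0.05. Most points lie a little right of 0, and MRPL18 lies alone at -0.70.

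MRPL18, a large subunit protein of the central protuberance that is also known in human cells to carry 5S rRNA into mitochondria, had the largest difference of any member. It had 57.5, 55.4 and 55.2 FPKM in PAL libraries, against 86.4, 90.0 and 98.3 FPKM in control libraries. Every PAL library was below every control library, and the groups lay far apart. The means were 56.0 ± 1.31 FPKM in PAL and 91.6 ± 6.10 FPKM in control libraries (SD, n = 3 each), a log2 fold change of -0.70 ± 0.05 (SE) with an adjusted p of 1.49e-04 (limma). The call held in all 18 alternative analyses. The gene lies on chromosome 6 at 159789812 to 159798436 on the plus strand (hg38) and shares no exon base with another annotated gene. A cytosolic form of the protein has been described in heat-stressed human cells, and the transcript was high in the same libraries as HSPA6. The part of the stress response in this difference was not tested.

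The start regions of 5 members are shown: MRPL18, the 1 member that fell, and 3 that rose (MRPL12, MRPS12 and MRPS34). The last is MRPL51, which holds the same motif as MRPL18 but was not called. Whether these sequences have a part in the differences was not tested. The sequences are from RefSeq on GRCh38.p14, 5′ to 3′ on the gene's strand, from 250 bases before to 50 bases after a transcription start. Where RefSeq lists several starts, the window with the most motif matches is printed, so the number of matches in it was part of the choice. MRPL18 is chr6:159789617-159789916, plus strand. MRPL12 is chr17:81703117-81703416, plus strand. MRPS12 is chr19:38930694-38930993, plus strand. MRPS34 is chr16:1773085-1773384, minus strand. MRPL51 is chr12:6493213-6493512, minus strand. Capitals mark matches to the ETS type motif CCGGAAG (read CTTCCGG on the other strand) and to a heat shock element of 2 units, GAANNTTC or TTCNNGAA, where N is any base.
MRPL18: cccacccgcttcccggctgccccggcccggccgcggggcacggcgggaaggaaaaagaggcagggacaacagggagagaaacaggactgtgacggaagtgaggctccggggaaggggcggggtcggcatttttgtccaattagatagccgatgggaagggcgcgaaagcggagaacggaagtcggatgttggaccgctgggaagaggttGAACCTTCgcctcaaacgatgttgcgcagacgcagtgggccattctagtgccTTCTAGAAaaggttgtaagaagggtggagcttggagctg
MRPL12: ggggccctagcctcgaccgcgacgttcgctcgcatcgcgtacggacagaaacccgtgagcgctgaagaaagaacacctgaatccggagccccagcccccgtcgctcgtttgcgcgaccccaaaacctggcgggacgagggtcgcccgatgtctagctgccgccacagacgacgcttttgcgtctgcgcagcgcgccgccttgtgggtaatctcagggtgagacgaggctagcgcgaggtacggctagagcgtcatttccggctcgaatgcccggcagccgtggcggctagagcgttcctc
MRPS12: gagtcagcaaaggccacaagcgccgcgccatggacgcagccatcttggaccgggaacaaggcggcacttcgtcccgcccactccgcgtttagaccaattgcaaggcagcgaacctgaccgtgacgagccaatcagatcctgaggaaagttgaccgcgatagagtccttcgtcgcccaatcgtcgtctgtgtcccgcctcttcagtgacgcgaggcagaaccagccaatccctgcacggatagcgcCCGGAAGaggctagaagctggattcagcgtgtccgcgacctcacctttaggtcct
MRPS34: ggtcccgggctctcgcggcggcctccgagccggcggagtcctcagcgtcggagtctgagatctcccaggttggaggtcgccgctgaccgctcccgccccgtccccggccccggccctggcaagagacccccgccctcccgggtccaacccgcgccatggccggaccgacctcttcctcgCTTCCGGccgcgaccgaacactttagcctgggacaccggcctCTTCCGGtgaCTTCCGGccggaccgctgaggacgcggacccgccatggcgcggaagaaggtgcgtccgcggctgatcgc
MRPL51: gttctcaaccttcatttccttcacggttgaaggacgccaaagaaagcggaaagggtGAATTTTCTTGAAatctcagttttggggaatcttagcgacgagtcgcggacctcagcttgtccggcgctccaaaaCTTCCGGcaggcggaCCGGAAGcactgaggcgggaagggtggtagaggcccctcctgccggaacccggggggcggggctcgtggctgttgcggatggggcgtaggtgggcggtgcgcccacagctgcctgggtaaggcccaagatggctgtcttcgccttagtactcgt

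In MRPL18, a heat shock element match starts 41 bases before the transcription start (GAACCTTC) and another 12 bases after it (TTCTAGAA), and the listed start lies 55 bases inside the gene as the table has it. In the window of the gene's own start only 1 of them falls, and the window of the last listed start, 655 bases inside, holds no heat shock element and 1 ETS type match. The MRPL12 window holds neither motif. The MRPS12 window holds 1 ETS type match, 5 bases before the start, and the MRPS34 window holds 3, starting 71, 29 and 19 bases before it. The MRPL51 window holds 2 ETS type matches and 2 overlapping heat shock element matches.

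Of the 78 members, 70 matched an entry of the promoter table. MRPL2, MRPL10, MRPL13, MRPL15, MRPL21, MRPL23, MRPL35 and MRPS28 did not. The ETS type motif, bound by factors such as GABP (NRF-2) that are known activators of nuclear genes for mitochondria, was in at least 1 listed start region of 30 of 70 members (42.9%), MRPL18 among them through its last start. Counted the same way, it was in 24.2% of tested protein-coding genes and in 12.2% of all 27305 genes in the table. Its share was 42.9% in the large and 42.9% in the small subunit genes, and it was in 8 of the 15 matched members that rose. The YY1 motif AAGATGGCG was in 13 member promoters (18.6%), against 5.30% of tested protein-coding and 2.14% of all promoters. The NRF1 type motif GCGCATGCG was in 3 (4.29%), against 4.59% and 2.34%. The heat shock element, searched after the values of MRPL18 were seen, was in 13 (18.6%), against 13.5% and 16.2%. With 1 start region per gene, the one nearest the gene start of the deposited table, the ETS type motif was in 29 members (41.4%), against 21.2% of tested protein-coding genes, and the heat shock element in 13 (18.6%), against 9.95%. Members had 1.23 listed starts on average, and tested protein-coding genes 1.45. It was in 0 of the 15 matched members that rose, and beside MRPL18 its 12 other carriers were not called. All motifs were searched on both strands, and a match is a run of letters, not a site shown to be bound.

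MRPL18 starts 63 bases from TCP1, a subunit of the cytosolic chaperonin CCT, which is transcribed the other way. TCP1, a gene chosen after its values were seen, had 113.4, 111.8 and 120.3 FPKM in PAL libraries, against 165.1, 170.1 and 168.8 FPKM in control libraries. As for MRPL18, all PAL libraries lay below all control libraries. Its log2 fold change was -0.54 ± 0.03 (SE) with an adjusted p of 8.33e-05 (limma). Members often start near a gene on the other strand, here within 1000 bases before or after its start. Such a protein-coding neighbour was found for 18.8% of 10338 tested protein-coding genes and for 29 of 78 members (37.2%). In 24 of these pairs both genes were tested, with MRPL46 and MRPS11, each the other's neighbour, counted from both sides. In them 6 members and 4 neighbours were called, and MRPL18 with TCP1 was the 1 pair in which both were. Over all tested genes 11.4% rose and 14.5% fell, so neither count stood above the share called over all tested genes. The other called neighbours, likewise named after their values were seen, were SKA3 and PPP1R10, which rose, and TWNK, which fell. TWNK, the mitochondrial DNA helicase, averaged 23.6 ± 0.706 FPKM in PAL and 28.5 ± 1.17 FPKM in control libraries (log2 fold change -0.26, adjusted p 0.00476, limma), while MRPL43 beside it, named for that place, averaged 15.8 ± 0.425 FPKM in PAL and 14.6 ± 0.294 FPKM in control libraries and was not called (adjusted p 0.0572).

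**Figure D2:**
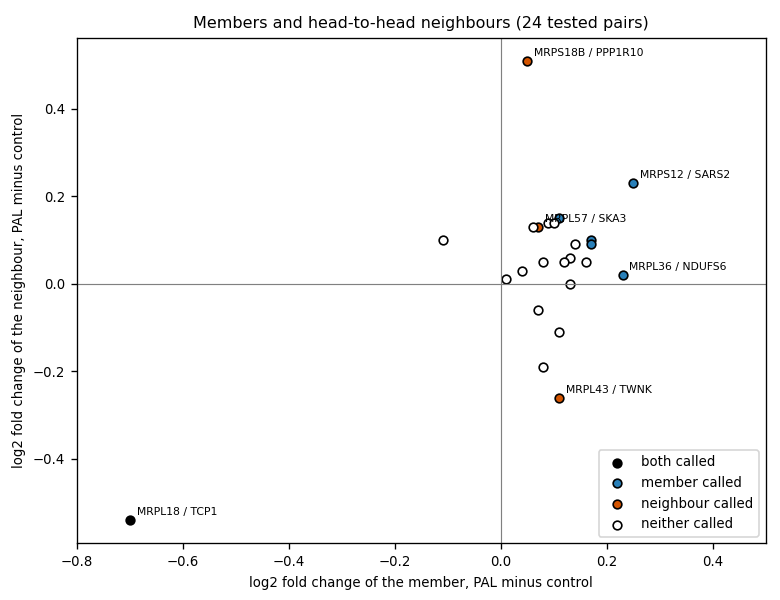
Log2 fold change of each member (x axis) and of the neighbour that starts within 1000 bases on the other strand (y axis), PAL minus control on log2(FPKM + 1), for 24 tested pairs. MRPL18 with TCP1 is the 1 pair with both genes called, at -0.70 and -0.54.

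Among large subunit proteins, 11 of 48 tested genes rose (22.9%, against 11.4% of all tested genes). MRPL12, a protein of the flexible stalk that is also known to bind the mitochondrial RNA polymerase, had 49.2, 50.4 and 49.0 FPKM in PAL libraries, against 40.1, 41.8 and 38.8 FPKM in control libraries. All PAL libraries lay above all control libraries, and each group was tight. The log2 fold change was 0.29 ± 0.03 (SE) with an adjusted p of 0.00144 (limma), and the call held in all 18 alternatives. Of its coding bases, 96.0% also lie in exons of AC139530.2, a same-strand gene listed at 0 FPKM in these libraries.

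Proteins close to the peptidyl transferase centre, where peptide bonds are formed, included MRPL2 and MRPL27. MRPL2 had 14.8, 14.6 and 14.0 FPKM in PAL libraries, against 12.1, 12.8 and 12.3 FPKM in control libraries, with no overlap. Its log2 fold change was 0.21 ± 0.04 (adjusted p 0.00806, limma), called in all 18 alternatives. MRPL27 had 22.5, 23.2 and 23.3 FPKM in PAL libraries, against 20.3, 20.8 and 20.0 FPKM in control libraries. The PAL libraries were again the 3 highest, with a log2 fold change of 0.17 ± 0.03 (adjusted p 0.00877, limma), and 17 of 18 alternatives called it.

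The other large subunit genes that rose with a bacterial counterpart were MRPL20, MRPL24, MRPL32, MRPL34 and MRPL36, and in each the groups did not overlap. MRPL36, among the smallest ribosomal proteins in bacteria, had 27.6, 29.5 and 25.3 FPKM in PAL libraries, against 23.1, 22.7 and 23.8 FPKM in control libraries (log2 fold change 0.23, adjusted p 0.0227). MRPL34 had 30.7, 33.2 and 29.2 FPKM in PAL libraries, against 26.6, 27.9 and 27.6 FPKM in control libraries (0.17, adjusted p 0.0376). For both genes PAL replicate 2 was the highest and PAL replicate 3 the lowest of the PAL libraries. MRPL32, whose precursor is cut by the m-AAA protease of the inner membrane, had 15.7, 16.5 and 17.1 FPKM in PAL libraries, against 15.0, 14.8 and 13.6 FPKM in control libraries (0.17, adjusted p 0.0404). MRPL20, an early rRNA-binding assembly protein in bacteria, had 49.9, 48.2 and 48.5 FPKM in PAL libraries, against 42.8, 46.0 and 44.8 FPKM in control libraries (0.13, adjusted p 0.0287). MRPL24, at the peptide exit, had 69.2, 68.5 and 67.9 FPKM in PAL libraries, against 61.7, 65.8 and 63.8 FPKM in control libraries (0.10, adjusted p 0.0418). These are log2 fold changes with limma's adjusted p, and the nearest PAL and control libraries of MRPL20, MRPL24 and MRPL32 lay close together. The alternatives called MRPL36 in 12 of 18, MRPL34 in 10, and MRPL20, MRPL24 and MRPL32 in 9 each. With 1 library left out, MRPL36 was called without PAL replicate 3 or control replicate 3, MRPL34 without PAL replicate 3, MRPL32 without PAL replicate 1, and MRPL20 and MRPL24 without control replicate 2, and each lost its call without any other library. Over the alternatives the limma adjusted p reached 0.0692 for MRPL36, 0.103 for MRPL34, 0.15 for MRPL32, 0.093 for MRPL20 and 0.123 for MRPL24.

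The remaining large subunit genes that rose were MRPL41, MRPL44 and MRPL53, whose proteins are additions of the mitochondrial ribosome. MRPL41 had 40.5, 42.6 and 43.4 FPKM in PAL libraries, against 35.4, 38.7 and 37.5 FPKM in control libraries (log2 fold change 0.18, adjusted p 0.0231, 13 of 18 alternatives). MRPL44, which carries a ribonuclease III-like fold, had 19.2, 17.8 and 17.8 FPKM in PAL libraries, against 16.6, 16.3 and 16.7 FPKM in control libraries (0.13, adjusted p 0.0458, 7 of 18). MRPL44 had the adjusted p closest to the threshold of the 17 calls. MRPL53 had 2.35, 2.59 and 3.11 FPKM in PAL libraries, against 1.83, 1.86 and 1.83 FPKM in control libraries (0.37 ± 0.08, adjusted p 0.0199, 11 of 17 alternatives, all by limma). The PAL libraries of MRPL53 varied far more than its control libraries, on 37 to 77 reads per library, and 100% of its coding bases also lie in exons of CCDC142 on the same strand, a gene that averaged 2.00 FPKM. Which of the pair the shared reads came from was not tested. With 1 library left out, MRPL41 lost its call without PAL replicate 2 or 3 or control replicate 1, MRPL53 without PAL replicate 2 or control replicate 1 or 2, and MRPL44 without any one of the 6. Over the alternatives the limma adjusted p reached 0.0933 for MRPL41, 0.122 for MRPL44 and 0.0649 for MRPL53.

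In the small subunit, 5 of 28 tested genes rose (17.9%, against 11.4% of all tested genes) and 0 fell (against 14.5%). At an unadjusted p below 0.05, 0 were lower by limma or by voom, the same package's model of read counts. MRPS12, a protein of the decoding centre, had 31.6, 32.7 and 32.2 FPKM in PAL libraries, against 26.0, 26.4 and 28.5 FPKM in control libraries. The groups did not overlap, and the log2 fold change was 0.25 ± 0.04 (adjusted p 0.00581, limma). MRPS26, which has no bacterial counterpart, had 75.2, 76.2 and 76.1 FPKM in PAL libraries, against 67.7, 65.8 and 66.7 FPKM in control libraries. Both groups were tight and apart, with a log2 fold change of 0.18 ± 0.02 (adjusted p 0.00225, limma). Both genes were called in all 18 alternatives.

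MRPS16, MRPS23 and MRPS34 rose by less, again with no overlap. MRPS16, the first mitochondrial ribosomal protein gene linked to an inherited respiratory chain defect, had 33.3, 33.6 and 34.1 FPKM in PAL libraries, against 31.5, 30.7 and 29.6 FPKM in control libraries (log2 fold change 0.13, adjusted p 0.0212, 12 of 18 alternatives). MRPS23 had 16.8, 18.5 and 17.4 FPKM in PAL libraries, against 15.8, 15.9 and 15.1 FPKM in control libraries (0.16, adjusted p 0.0317, 9 of 18). MRPS34, mutated in a form of Leigh syndrome, had 162.9, 170.8 and 168.7 FPKM in PAL libraries, against 153.3, 152.9 and 159.5 FPKM in control libraries (0.11, adjusted p 0.0321, 10 of 18, all by limma). It had the highest level of all members, and its log2 fold change was among the smallest that were called. With 1 library left out, MRPS16 was called without control replicate 1 or 3, MRPS34 without PAL replicate 1 or control replicate 3, and MRPS23 without PAL replicate 1, and each lost its call without any other library. Over the alternatives the limma adjusted p reached 0.0891 for MRPS16, 0.115 for MRPS23 and 0.101 for MRPS34.

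**Figure D3:**
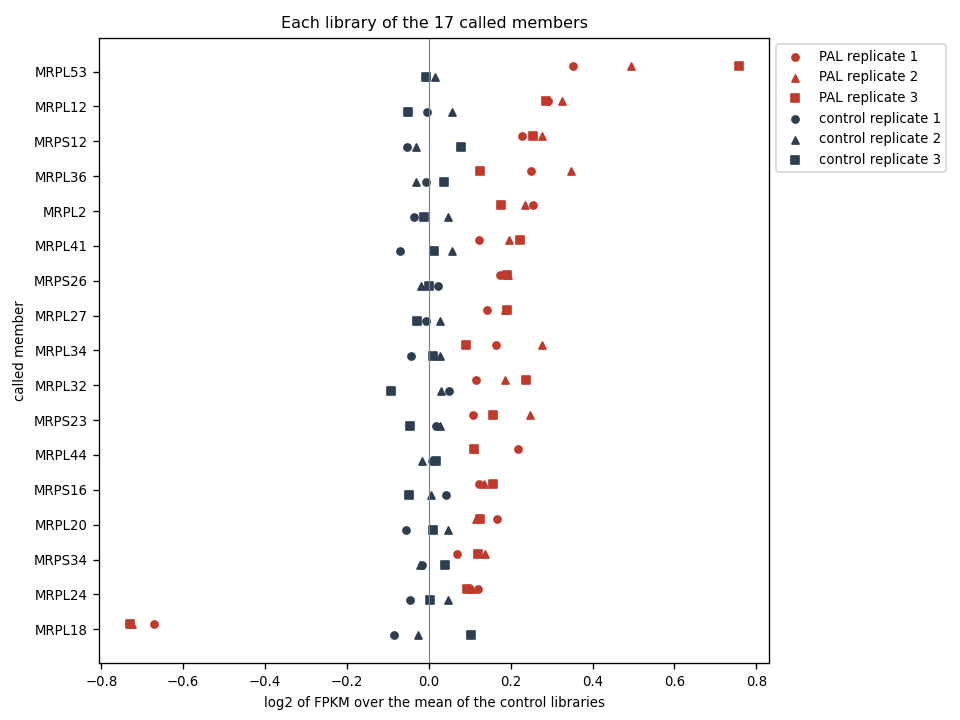
Each library of the 17 called members as log2 of its FPKM over the mean of the 3 control libraries, PAL in red and control in dark blue, with a marker shape for each replicate number. In every gene the 3 PAL libraries lie on one side of the 3 control libraries, 16 genes to the right and MRPL18 to the left.

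Of the 59 tested members that were not called, 15 had an unadjusted p below 0.05 and 18 were higher in every PAL library than in any control library. MRPL47, at the peptide exit, came closest to a second fall, with 46.0, 42.7 and 44.8 FPKM in PAL libraries, against 47.3, 49.3 and 47.7 FPKM in control libraries. The groups did not overlap, and the log2 fold change was -0.11 ± 0.03 (adjusted p 0.0562, limma). It was called lower when genes of a mean below 5 FPKM, or genes that are not protein-coding, were left out. Its log2 fold change was -0.04 in TPM (adjusted p 0.452) and -0.03 with plain totals (adjusted p 0.592). MRPS10, a small subunit protein with a bacterial counterpart, averaged 21.9 ± 0.192 FPKM in PAL and 22.9 ± 0.542 FPKM in control libraries (log2 fold change -0.06, adjusted p 0.166, positive in TPM and with plain totals). MRPS36 averaged 23.4 ± 0.979 FPKM in PAL and 24.6 ± 0.455 FPKM in control libraries (-0.07, adjusted p 0.203, limma, positive with plain totals).

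MRPL23 was the most variable member, with a coefficient of variation of 25.5% in control libraries. It had 6.60, 6.38 and 8.78 FPKM in PAL libraries, against 9.17, 9.80 and 5.88 FPKM in control libraries. The libraries numbered 3 stood opposite to the others: PAL replicate 3 was the highest of its group and control replicate 3 the lowest of all 6. With all libraries the log2 fold change was -0.15 ± 0.19 (adjusted p 0.579, limma), and without both libraries numbered 3 the gene was called lower.

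The MRPS18 paralogues differ in where their proteins sit, MRPS18A in the large subunit and MRPS18B and MRPS18C in the small one. MRPS18A averaged 29.2 ± 1.60 FPKM in PAL and 25.7 ± 2.86 FPKM in control libraries (log2 fold change 0.18, adjusted p 0.147). MRPS18B averaged 46.9 ± 3.56 FPKM in PAL and 45.2 ± 2.83 FPKM in control libraries (0.05, adjusted p 0.602). MRPS18C averaged 8.89 ± 0.751 FPKM in PAL and 8.59 ± 0.745 FPKM in control libraries (0.04, adjusted p 0.701, all by limma, n = 3 each). None of the 3 was called, with overlapping groups for MRPS18B and MRPS18C and none for MRPS18A. By level MRPS18B was the highest and MRPS18C the lowest of the 3 in each group.

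The large and the small subunit both leaned to higher values in PAL libraries, and measures of their balance overlapped between the groups. By comparison, 11.4% of all 12258 tested genes rose and 14.5% fell, with a median log2 fold change of 0.00 and 6262 positive values. Of 48 tested large subunit genes, 22.9% rose, with a median log2 fold change of 0.11 and 45 positive values. Of 28 tested small subunit genes, 17.9% rose, with a median of 0.05 and 25 positive values. That small subunit median was 0.08 without PAL replicate 3 and 0.08 without control replicate 1. With MRPS30 and MRPS18A counted in the large subunit and MRPS36 left out, the counts were 11 of 50 and 5 of 25.

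The sums and mean levels here are over the tested members by name, without MRPL38 and MRPS24. Large subunit genes came to 1544, 1545 and 1523 FPKM in PAL libraries, against 1462, 1502 and 1471 FPKM in control libraries. Small subunit genes summed to 820.9, 840.5 and 830.9 FPKM in PAL libraries, against 789.4, 784.7 and 774.7 FPKM in control libraries. Neither pair of groups overlapped, and the ratios of the means were 1.04 and 1.06. The ratio of the large to the small sum was 1.85 ± 0.0265 in PAL and 1.89 ± 0.0321 in control libraries (SD, n = 3 each), with overlap. The mean log2 level of large minus small subunit genes was 0.234 ± 0.00436 in PAL and 0.222 ± 0.0168 in control libraries, a difference of 0.012 with overlap between the groups. The sums give high members more weight, and there the ratio of the small subunit was the larger. By medians of the fold changes the large subunit moved more. The large sum holds MRPL18, which averaged 56.0 FPKM in PAL and 91.6 FPKM in control libraries. The whole large sum differed by 59.0 FPKM the other way, so this 1 gene weighs on its ratio. The ratio without MRPL18 is not given here. All members, tested or not, took 0.554 to 0.558% of assigned reads in PAL and 0.494 to 0.507% in control libraries.

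Levels per gene length spread over more than 2 orders of magnitude among proteins that are mostly held once per ribosome. Averaged over all 6 libraries, large subunit genes ran over 0.665 to 107.5 FPKM with a median of 25.6, and small subunit genes over 0.294 to 161.4 FPKM with a median of 21.7. In all, 2 members (MRPS34 and MRPL51) were above 100 FPKM, 61 lay between 10 and 100 FPKM, and 15 lay below 10 FPKM. MRPL51 averaged 110.0 ± 0.388 FPKM in PAL and 105.0 ± 2.60 FPKM in control libraries (log2 fold change 0.07, adjusted p 0.0967, limma). MRPL3 followed in the large subunit, with 86.3 ± 1.12 FPKM in PAL and 84.9 ± 3.00 FPKM in control libraries (0.02, adjusted p 0.625). MRPL15 averaged 77.4 ± 3.29 FPKM in PAL and 71.3 ± 2.99 FPKM in control libraries (0.12, adjusted p 0.0892). MRPL18 ranked below MRPL15 in PAL libraries and above MRPL3 in control libraries, so the order of these genes differed between the groups. MRPS35 averaged 57.3 ± 0.917 FPKM in PAL and 55.0 ± 1.51 FPKM in control libraries, next in the small subunit after MRPS34 and MRPS26. Replicates were close, with a median coefficient of variation over members of 3.62% in PAL and 3.65% in control libraries, on 37 to 4380 reads per tested member and library.

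**Figure D4:**
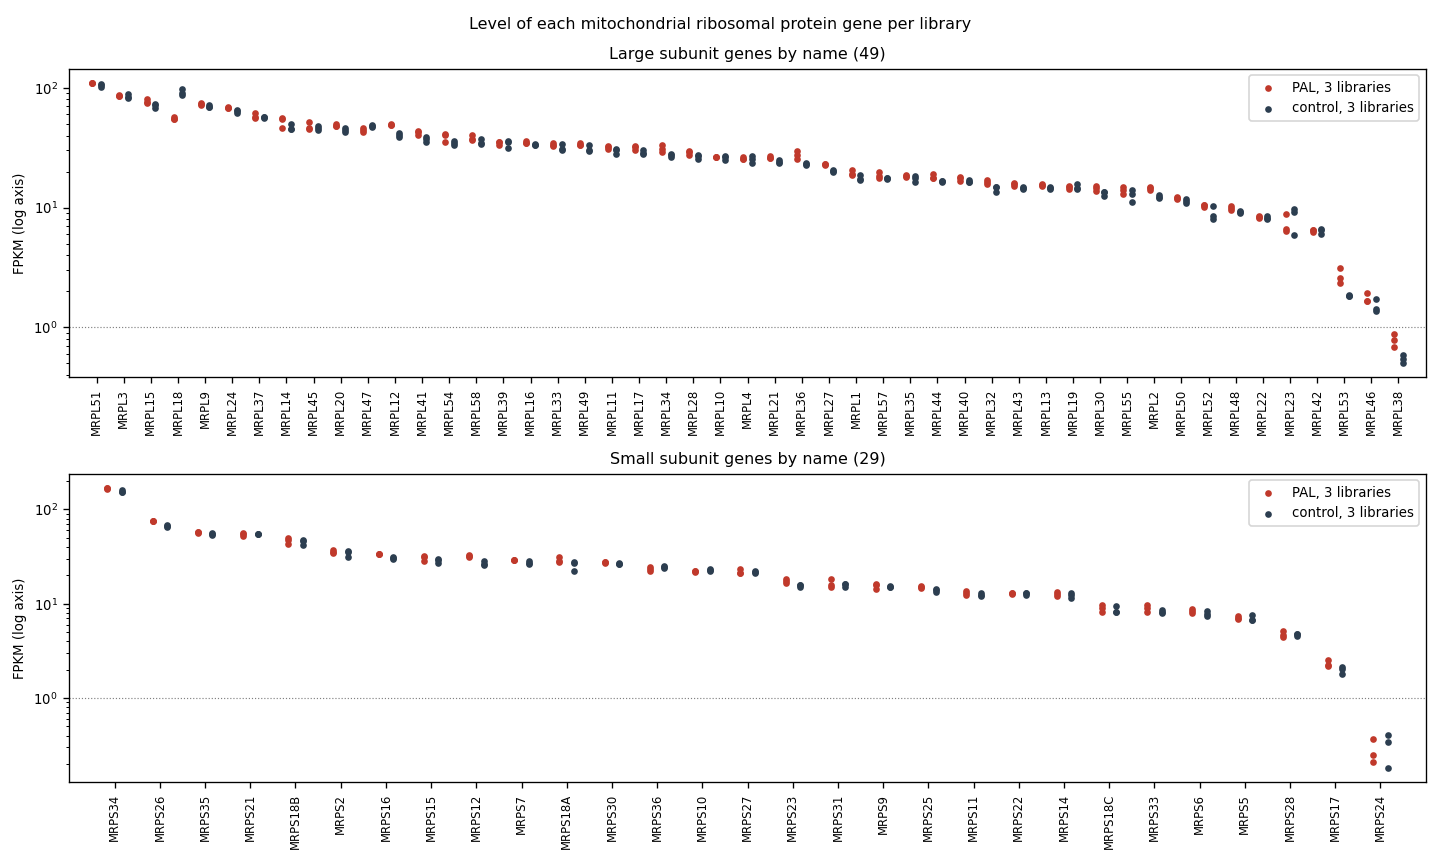
FPKM of each large subunit gene (top, 49) and small subunit gene (bottom, 29) in every library on a log axis, ordered by mean level, PAL in red left of control in dark blue, with a dotted line at 1 FPKM. MRPS34 and MRPL51 stand highest, MRPL18 is the clearest gap between the groups, and MRPL38 and MRPS24 lie under the line.

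The lowest members share sequence with other annotated genes. In a split chosen after the levels were seen, 8 members were set apart. At least 50% of their coding bases also lie in exons of another gene on the same strand in GENCODE 29. Their levels ran over 0.294 to 44.9 FPKM with a median of 2.21, against 6.38 to 161.4 FPKM with a median of 26.0 for the other 70. These 8 were MRPL12 (96.0%), MRPL30 (95.3%), MRPL38 (94.1%), MRPL46 (64.0%), MRPL53 (100%), MRPS17 (100%), MRPS24 (92.2%) and MRPS28 (53.0%), and they include all 6 of the lowest members. MRPL12 and MRPL30 show that a high shared percentage also occurred at 44.9 and 13.9 FPKM. No source used here says how reads in shared exons were assigned, and its part in these levels was not tested. Level also went with the annotated length of the gene, with a Spearman rho of -0.61 over 78 members, which share the length that the unit divides by. MRPL42, the longest at 16393 bases, averaged 6.40 ± 0.125 FPKM in PAL and 6.37 ± 0.272 FPKM in control libraries.

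MRPL38 and MRPS24 did not reach 1 FPKM in 3 libraries and were not tested. MRPL38 had 0.683, 0.883 and 0.785 FPKM in PAL libraries, against 0.50, 0.59 and 0.546 FPKM in control libraries. MRPS24 had 0.208, 0.367 and 0.249 FPKM in PAL libraries, against 0.411, 0.181 and 0.346 FPKM in control libraries. The groups did not overlap for MRPL38 and overlapped for MRPS24, on 29 to 54 and 7 to 17 reads per library. MRPL46 averaged 1.75 ± 0.157 FPKM in PAL and 1.51 ± 0.202 FPKM in control libraries, MRPS17 2.34 ± 0.197 FPKM in PAL and 1.99 ± 0.165 FPKM in control libraries, and neither was called. Of 77 further genes with such a symbol that are not protein-coding, 75 are pseudogenes, 64 were at 0 in every library, and the highest was the antisense MRPS30-DT at 3.23 FPKM.

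**Figure D5:**
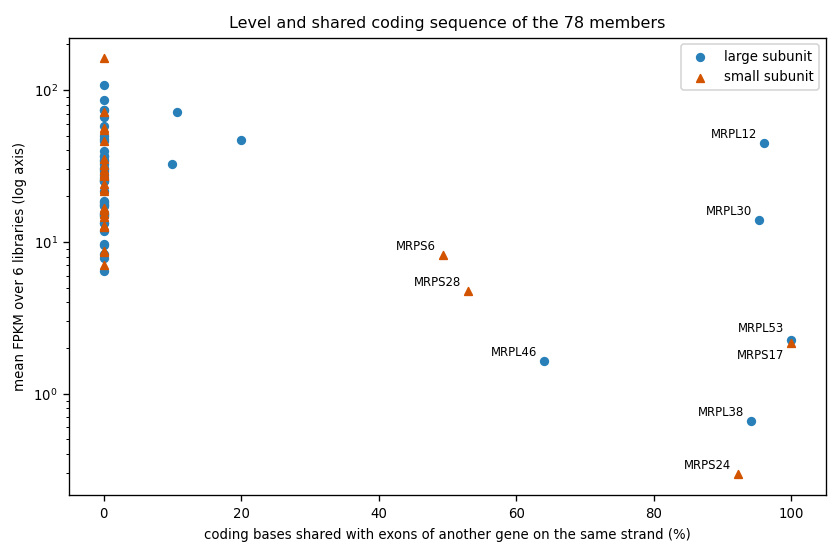
Mean FPKM over 6 libraries on a log axis (y) against the percent of a member's coding bases that lie in exons of another gene on the same strand (x), circles for the large and triangles for the small subunit. The 6 lowest members all lie at 50% or more, MRPS6 just under it, and MRPL12 is the 1 gene above 20 FPKM there.

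By origin and position in the ribosome, the calls were spread over several groups. Of 30 large subunit genes with a bacterial counterpart, 8 rose and 1 fell (median log2 fold change 0.11), and of 18 tested genes without one 3 rose (0.10). In the small subunit by name, 2 of 15 tested genes listed with a counterpart rose (0.05) and 3 of the 13 others (0.06). Those 13 include MRPS18A, MRPS30 and MRPS36, whose proteins do not sit in the small subunit. They also include MRPS18B, like MRPS18A a paralogue of the listed MRPS18C. Of the stalk proteins 1 of 3 rose (MRPL12), at the peptide exit 1 of 6 (MRPL24), and in the central protuberance 1 of 7 tested rose (MRPL27) and 1 fell (MRPL18). Among 12 members linked to inherited combined oxidative phosphorylation deficiency, 5 rose: MRPL12, MRPL44, MRPS16, MRPS23 and MRPS34. Of 18 alternatives, MRPL12 was called in 18, MRPS16 in 12, MRPS34 in 10, MRPS23 in 9 and MRPL44 in 7. Over all tested members 21.1% rose, and over all tested genes 11.4% rose and 14.5% fell. The groups are small, and differences between them were not tested.

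Mitochondrial ribosomal proteins that carry other symbols showed values of the same size, with 2 of 5 higher and a median log2 fold change of 0.11. GADD45GIP1, a large subunit protein, averaged 76.1 ± 3.40 FPKM in PAL and 63.5 ± 3.48 FPKM in control libraries (0.26, adjusted p 0.0106). AURKAIP1, a small subunit protein, averaged 107.2 ± 4.53 FPKM in PAL and 96.5 ± 2.92 FPKM in control libraries (0.15, adjusted p 0.0289, both by limma). DAP3, CHCHD1 and PTCD3 were not called. For comparison, cytosolic ribosomal proteins had 10 of 83 higher and 1 lower (median 0.03, against 0.09 for all members). That difference depended on the scaling. With quantile normalization their median was 0.14, against 0.13 for all members, and in TPM it was 0.11 against 0.16. Nuclear-encoded parts of the oxidative phosphorylation complexes had 10 of 78 higher and 1 lower (median 0.07). The shares over all tested genes were 11.4% higher and 14.5% lower. Both comparison lists thus lay near that share of higher genes and well below that share of lower genes. Whether these lists differ from the mitochondrial ribosomal proteins was not tested.

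Among genes for building the ribosome more rose than fell. Of 27 genes for assembly and rRNA modification, 7 rose (25.9%) and 1 fell (3.70%), with a median log2 fold change of 0.07. By the same rule 11.4% of all tested genes rose and 14.5% fell. MRM1, which methylates the large rRNA, averaged 10.6 ± 0.649 FPKM in PAL and 7.39 ± 0.105 FPKM in control libraries (0.46 ± 0.05, adjusted p 0.00107). DDX28, an RNA helicase of large subunit assembly, averaged 9.90 ± 0.689 FPKM in PAL and 7.45 ± 0.206 FPKM in control libraries (0.37 ± 0.05, adjusted p 0.00431). In both, the groups did not overlap. On log2(FPKM + 1), the log2 fold change of MRM1 was above that of every mitochondrial ribosomal protein called. By the ratio of the means, MRPL53 (1.46) stood above MRM1 (1.43). MTERF3 (0.25, adjusted p 0.00603) and MALSU1 (0.18, adjusted p 0.0346) also rose, and MRM3, another methyltransferase of the large rRNA, fell (-0.14, adjusted p 0.0434, all by limma).

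Of 18 translation factors, 1 rose (5.56%) and 4 fell (22.2%), with a median log2 fold change of 0.01. Over all tested genes 11.4% rose and 14.5% fell, so falls outnumbered rises there too. GFM2, which splits the ribosome into its subunits for recycling, averaged 17.7 ± 0.516 FPKM in PAL and 22.0 ± 0.629 FPKM in control libraries (-0.30, adjusted p 0.00172). MTRF1L, a release factor, averaged 7.05 ± 0.291 FPKM in PAL and 8.94 ± 0.442 FPKM in control libraries (-0.30, adjusted p 0.00600). The elongation factor GFM1 (-0.16, adjusted p 0.0207) and LRPPRC, which stabilises mitochondrial mRNAs (-0.21, adjusted p 0.00654), fell too, while PDF, which removes the formyl group of new peptides, rose (0.29, adjusted p 0.00891, all by limma). With TPM, quantile normalization or plain totals the falls over all these lists of mitochondrial translation genes numbered 3, against 6 on the deposited scale, and without PAL replicate 1, PAL replicate 3 or control replicate 2 they also numbered 3. Without PAL replicate 2, 9 of these genes rose, against 14 with all libraries.

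In mitochondrial transcription and RNA processing, 4 of 19 tested genes rose (21.1%) and 1 fell (5.26%), with a median log2 fold change of 0.03. The shares of all tested genes were 11.4% and 14.5%. FASTK averaged 16.5 ± 0.882 FPKM in PAL and 11.6 ± 0.306 FPKM in control libraries (0.48 ± 0.05, adjusted p 7.01e-04). POLRMT, the mitochondrial RNA polymerase, averaged 20.1 ± 0.635 FPKM in PAL and 17.1 ± 0.704 FPKM in control libraries (0.22, adjusted p 0.00970). FASTKD3 (0.27, adjusted p 0.0135) and TBRG4 (0.18, adjusted p 0.00424) rose, and GRSF1, a protein of mitochondrial RNA granules, fell (-0.13, adjusted p 0.0216, all by limma).

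The ribosome's own RNAs were both higher in PAL libraries. MT-RNR1, the small rRNA, had 1235, 1366 and 1130 FPKM in PAL libraries, against 619.4, 620.3 and 647.8 FPKM in control libraries. MT-RNR2, the large rRNA, had 1258, 1358 and 1238 FPKM in PAL libraries, against 879.0, 846.9 and 709.6 FPKM in control libraries. Neither overlapped between the groups, with log2 fold changes of 0.98 ± 0.06 and 0.67 ± 0.08 and adjusted p of 1.20e-04 and 0.00188 (limma). Both were read in poly-A enriched RNA, so these values are of the rRNA that passed that step.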

How the data were processed

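RNA was column-extracted and poly-A enriched, per the labels' protocols. The authors deposited 1 FPKM value per gene and library (reads per gene length and library size, per the file headers) for 6 libraries. The submitters' processing notes list hg38. The aligner, the counting tool and strand use were not given in the sources used here. Positions of all 78 members equal those of GENCODE 29. FPKM times gene length fell on whole multiples of 1 step per library (100% of values within 0.01), which gave the reads per gene and the depth.

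The 12258 genes at 1 FPKM or more in 3 libraries or more were tested with limma 3.58.1 in R 4.3.3 on log2(FPKM + 1) with a variance trend, two-sided, 4 residual degrees of freedom, Benjamini-Hochberg threshold 0.05. Fold changes are PAL minus control on that scale, which understates changes of low genes. The fit was also run on simulated data, whose outcome is not given here and is not evidence for the calls. Replicates differed by more than sampling noise, with a chi-square of 1.97 to 3.99 per degree of freedom within groups. Members, gene lists and alternatives were chosen with earlier results of these data known. Named members were all called ones, the highest, lowest and most changed per subunit, the MRPS18 paralogues and untested ones, and per list up to 4 called genes per direction; others are marked. Start regions and neighbours were read from RefSeq and GENCODE with pandas 2.3.3. Figures were drawn with matplotlib 3.10.9. 1 gene of the cell type marker lists is not reported here.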

Additional observations from a re-analysis of the deposited data

How the results depend on the processing

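Alternatives covered the pseudocount, the filter, the scaling, the variance model, voom on recovered reads, gene classes, a replicate block and leaving out libraries. All 17 called members kept their direction in each, and 5 of them (MRPL2, MRPL12, MRPL18, MRPS12 and MRPS26) were called in all. The count of 16 members higher became 6 with no filter, 41 in TPM, 31 with quantile normalization, 47 with plain read totals, 9 without a variance trend, 10 without both libraries numbered 3 and 6 to 13 without 1 library. Same-numbered libraries did not deviate together (correlations -0.02, 0.03 and -0.04), and the replicate block left 7 members higher. Members lower became 2 with a mean of at least 5 FPKM, with protein-coding genes only and without both libraries numbered 3. Other mitochondrial translation genes, 14 higher and 6 lower, became 9 higher with no filter, 29 higher and 3 lower in TPM, 34 higher and 3 lower with plain totals and 3 lower with quantile normalization; without 1 library they were 9 to 12 higher and 3 to 9 lower. The median log2 fold change of large subunit genes (0.11) became 0.18 in TPM, 0.14 with quantile normalization and 0.19 with plain totals, and 0.09 to 0.11 without 1 library. That of small subunit genes (0.05) became 0.13, 0.09 and 0.14, and 0.05 to 0.08. That of all members (0.09) became 0.16, 0.13 and 0.17. The median over all tested genes (0.00) moved too, to 0.07, 0.03 and 0.08, so relative to it large subunit genes stood at 0.11 and small subunit genes at 0.05 to 0.06 in these scalings. The ratios of summed FPKM (1.04 and 1.06) became 1.09 and 1.11 in TPM. Beyond the scaling itself, the cause of these changes was not tested. Depth limits members under 100 reads per library, such as MRPL53.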
